A study of Rattus norvegicus with 29 samples.

Results

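The proteasome genes were taken as all genes whose symbol begins with Psma, Psmb, Psmc or Psmd followed by a number. On the array 48 probe sets that carried such a symbol and no other stood for 37 genes, of 14217 genes with a probe set of 1 symbol. Where a gene had several probe sets, the one with the highest mean over the 29 arrays stood for it, and the others are described beside it. One of the 37, Psmc3ip, matches the symbols but encodes a partner of meiotic recombination proteins and no proteasome subunit. Psmd5, Psmd9 and Psmd10 encode assembly chaperones of the 19S particle, which leave it before it is complete. Psmb6, a catalytic subunit, is not among the 37, because its probe set also carries the symbol of a related locus, and neither is the testis subunit Psma8 or the thymus subunit Psmb11.

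RNA came from the shell of the nucleus accumbens, a ventral striatal region, of P rats, a line bred for high voluntary ethanol drinking, and all 3 groups were of this line. The Water_only group had 9 arrays and drank no ethanol. The Limited_Ethanol group had 10 arrays from rats whose access to ethanol was limited, and the Continuous_ethanol group had 10 from rats with continuous access. The design text names 10 samples a group, and 1 of the water samples was not analysed here. Age, sex, dose and the length of exposure are not given in the sources used. Nothing in the labels says that each array came from a separate animal, so a p-value reflects the scatter among these samples, and part of that may be technical. Values are log2 expression after RMA, on which a difference of 1 is a doubling, and levels of different probe sets are not compared with each other. In tissue, fewer cells of a type and less RNA per cell cannot be told apart.

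The 26S proteasome degrades proteins tagged with ubiquitin. Its 20S core is a barrel of alpha rings, which gate the entrance, around beta rings, which hold the proteolytic sites. The 19S particle on its ends recognises ubiquitin, removes it, and unfolds and feeds in the substrate with a ring of ATPases. In immune activation the catalytic beta subunits Psmb5, Psmb6 and Psmb7 are replaced by Psmb8, Psmb9 and Psmb10, which form the immunoproteasome. In neurons proteasomes also act at synapses, where they turn over receptors and scaffold proteins.

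Medium spiny neurons are the principal cells of this region, and 9 of their 9 markers on the array were above the filter on dim probe sets. Penk averaged 13.5 and Ppp1r1b 12.5 over all arrays. On the second principal component of the tested probe sets, which held 16.5% of the variance, 5 arrays stood apart from the rest: Water_only replicates 2, 5 and 6 and Limited_Ethanol replicates 6 and 7. They lay between -22.2 and -15.6 on it, and the other 24 arrays between -3.30 and 20.2. Their signal at the 3′ end of beta-actin over its 5′ end, a measure of RNA integrity and labelling, had a median of 1.14 (log2), against 1.23 in the other arrays. None of the 5 was in the Continuous_ethanol group, so results are given with and without them. The 3′ over 5′ signal of beta-actin was 0.08 higher in Continuous_ethanol than in Water_only (exact permutation p = 0.0219, adjusted p = 0.142 over 39 such tests). The spread of values within an array, taken as its SD, was 0.02 higher (exact permutation p = 0.0154, adjusted p = 0.142). Several marker lists had lower means after continuous ethanol. Of 10 endothelial and mural markers 9 were lower, and their mean deviation ran from -0.03 to 0.39 in water and from -0.25 to 0.04 after continuous ethanol (exact permutation p = 0.00298, adjusted p = 0.116). All 16 leptomeningeal markers and all 9 markers of medium spiny neurons had lower means too, with median differences of -0.28 and -0.09 (adjusted p = 0.441 and 0.395 by exact permutation). Other neuronal lists went the other way. Of 6 general neuron markers 5 were higher, and of 5 cortical neuron markers 4, with median differences of 0.03 and 0.07 (adjusted p = 0.522 and 0.704 by exact permutation). None of the 39 tests of array measures and marker lists reached an adjusted p of 0.05.

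Between continuous access and water, 33 of 37 proteasome genes had a higher mean after continuous ethanol, where 53.1% of the 11328 genes tested did. The differences were small, with a median of 0.05, a lowest value of -0.03 (Psmb9) and a highest of 0.27 (Psmc6), against a median of 0.01 over all genes. Psmc6 alone passed the threshold of an adjusted p of 0.05, on 1 of its 3 probe sets. That is 1 of the 46 member probe sets tested, and 0.152% of the 21729 probe sets tested were called in this comparison, 0.0874% as higher. On the probe set that stands for each gene, limma called 0 of 37. At an unadjusted p under 0.05, 8 of 37 were higher, beside 10.4% of all genes, and 0 were lower, beside 6.35% of all genes. Without the 5 arrays that stood apart, 35 of 37 were higher (54% of all genes) and 14 reached an unadjusted p under 0.05 (6.42% of all genes), with a median of 0.06. With the array SD as a covariate 33 of 37 were higher with a median of 0.03, with beta-actin 34 with a median of 0.04, and with the leptomeningeal markers 36 with a median of 0.06. The share of all genes that were higher in these covariate fits is not given here, so the counts are not set against it. The part of the endothelial and medium spiny neuron markers in the differences between continuous access and water was not tested. Applying quantile normalization once more left 29 of 37 higher, where 46.9% of all genes were.

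**Figure D1:**
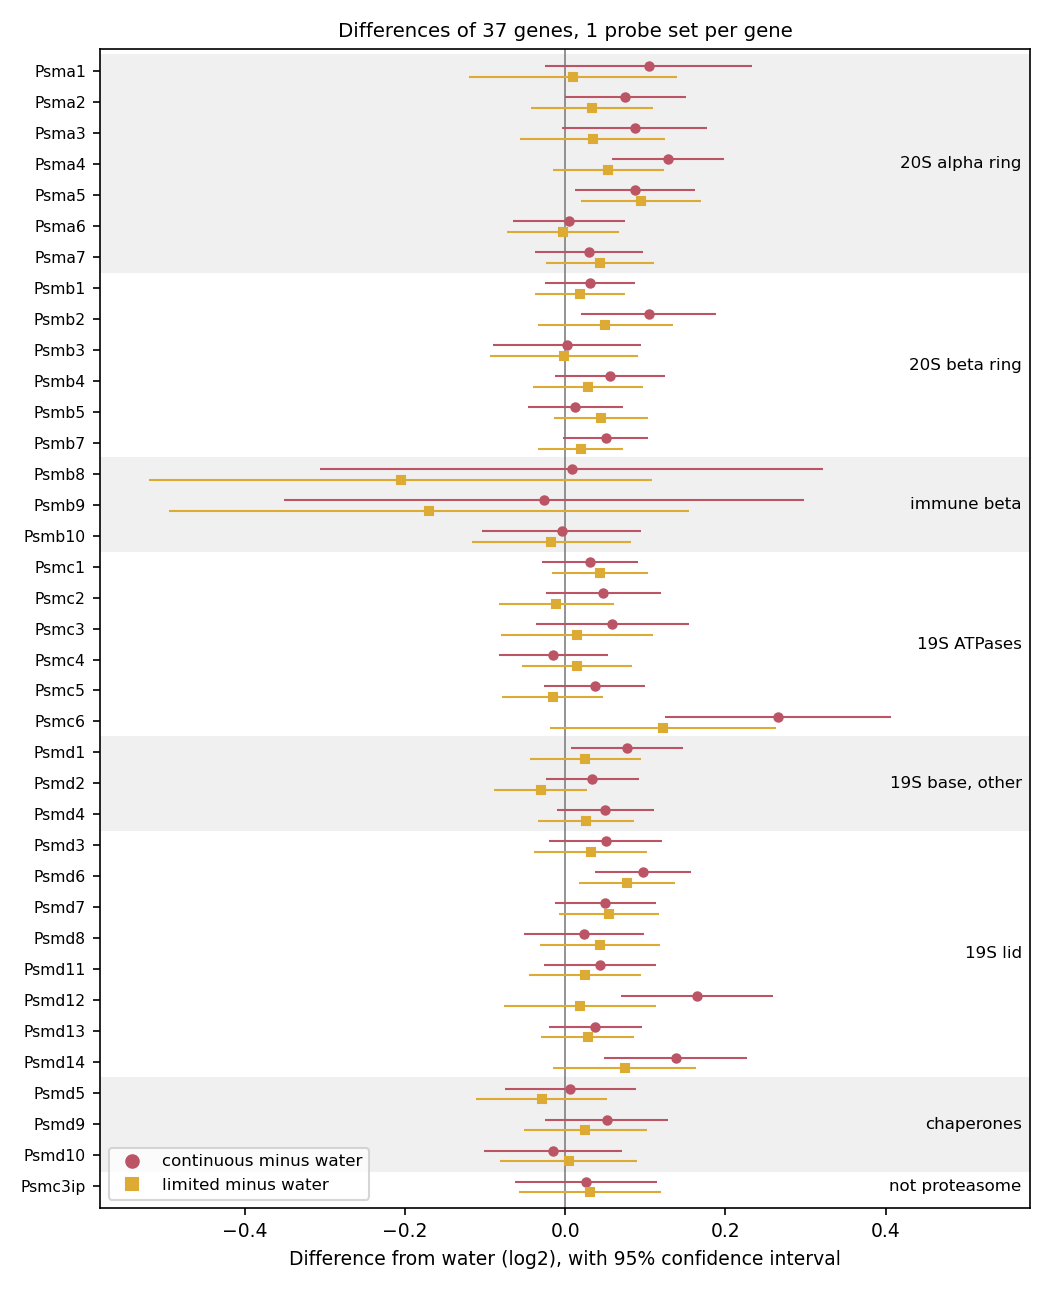
Differences of the group means from Water_only (log2, horizontal axis) with 95% confidence intervals for the 37 genes, ordered by their place in the proteasome. Circles show Continuous_ethanol minus Water_only, from -0.03 to 0.27, and squares Limited_Ethanol minus Water_only, from -0.21 to 0.12; the intervals of Psmb8 and Psmb9 are the widest.

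Psmc6 encodes one of the 6 ATPases of the 19S base that unfold substrates, and its 3 probe sets all had their highest group mean after continuous ethanol. Its promoter is shown because Psmc6 had the largest difference, beside that of Psma4, the member with the next smallest p. They are the 250 bases before the start of each gene in RefSeq, assembly GRCr8, at chr15:21022064-21022313 for Psmc6 and chr8:64236270-64236519 for Psma4, both on the plus strand. Capitals mark matches to the motifs searched, namely TGANTCA (AP-1) and CCGGAAG (ETS) in Psmc6, and an interferon-stimulated response core (GAAA, any 2 bases, GAAA) and CCAAT in Psma4.
Psmc6: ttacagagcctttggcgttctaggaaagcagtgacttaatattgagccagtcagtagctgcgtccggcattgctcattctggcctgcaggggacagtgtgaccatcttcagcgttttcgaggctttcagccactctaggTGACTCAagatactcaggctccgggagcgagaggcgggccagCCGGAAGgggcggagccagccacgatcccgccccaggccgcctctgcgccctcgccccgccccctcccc
Psma4: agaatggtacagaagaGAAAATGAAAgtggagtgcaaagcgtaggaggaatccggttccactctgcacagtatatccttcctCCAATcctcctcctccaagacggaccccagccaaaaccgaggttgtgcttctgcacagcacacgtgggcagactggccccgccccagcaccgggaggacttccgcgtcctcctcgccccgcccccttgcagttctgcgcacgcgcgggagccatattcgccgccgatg
In 33469 promoters of this length, 6 motifs were searched on both strands. Among them were 33 of the 37 genes, all but Psma7, Psmd6, Psmd12 and Psmd14. The ETS core CCGGAAG was found in 10 of the 33 (30.3%) and in 7.27% of all promoters. CCAAT was found in 18 (54.5%), against 34.0% of all. The antioxidant response core TGACNNNGC, the kind of site that Nfe2l1 and Nfe2l2 bind, was in 5 (15.2%, against 10.1%): Psma3, Psmb2, Psmb5, Psmd1 and Psmd9. The interferon-stimulated response core was in 4 (12.1%, against 3.41%): Psma4, Psmb3, Psmb10 and Psmd7. The AP-1 core was in Psmc6 only (3.03%, against 6.34%), and the NF-kappaB core (GGG, any 2 bases, TTTCC) in Psmd2 only (3.03%, against 1.3%). The AP-1 and antioxidant cores can overlap, and a match describes letters, not binding.

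On the brightest Psmc6 probe set (1384323_at) the Water_only arrays ran from 10.22 to 10.84 with a median of 10.60. The Limited_Ethanol arrays ran from 10.30 to 10.86 with a median of 10.73. The Continuous_ethanol arrays ran from 10.67 to 10.88 with a median of 10.81. The continuous group thus sat at the upper end of the range of the others, and the groups overlapped, with 3 of 10 arrays above the highest water array. The mean was 0.27 ± 0.07 (SE) higher than in water, or 20.2% on the linear scale, and 10 of 10 arrays lay above the water mean (adjusted p = 0.121). On 1382385_at the Water_only arrays spanned 8.54 to 9.05 (median 8.79), the Limited_Ethanol arrays 8.71 to 9.08 (8.93) and the Continuous_ethanol arrays 8.92 to 9.22 (9.07). There Psmc6 rose by 0.27 ± 0.06 (SE), and 10 of 10 arrays exceeded the water mean, 6 of them also the highest water array (adjusted p = 0.0379). On 1379850_at the ranges were 9.76 to 10.50 in water (median 10.25), 9.77 to 10.60 with limited access (10.37) and 10.38 to 10.77 with continuous access (10.55). The difference was 0.36 ± 0.09 (SE) there (adjusted p = 0.127). Within groups the 3 probe sets followed each other over the 29 arrays, with correlations of 0.71 to 0.83.

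Most of the lowest Psmc6 values came from the arrays that stood apart, and Water_only replicate 7, which is not one of them, was low as well. On 1379850_at those 5 arrays lay between 9.76 and 9.99, and the other 24 between 10.24 and 10.77, so these sets did not overlap. The component that set them apart was computed from the tested probe sets, those of Psmc6 among them. How many other probe sets separate these arrays was not counted, so the separation cannot be read as particular to Psmc6. Members went both ways on these arrays. Psma3 had a median of 10.77 on the 5 and 10.98 on the other 24, and Psmb2 of 12.07 and 12.22. Psmc4 was higher on the 5, with medians of 11.82 and 11.70. On the Psmc6 probe set 1384323_at the 5 arrays lay between 10.22 and 10.46 and the others between 10.39 and 10.88, and on 1382385_at between 8.54 and 8.84 against 8.67 and 9.22. Without the 5, the differences from water were 0.17 ± 0.05 (SE) on 1384323_at (adjusted p = 0.282), 0.21 ± 0.06 on 1379850_at (adjusted p = 0.261) and 0.21 ± 0.05 on 1382385_at (adjusted p = 0.204). With the array SD as a covariate they were 0.15 ± 0.06, 0.21 ± 0.08 and 0.18 ± 0.05 in the same order (adjusted p = 0.787, 0.827 and 0.470). With the 5 arrays as a block they were 0.16 ± 0.05, 0.19 ± 0.05 and 0.21 ± 0.05. The call on 1382385_at was lost when any one of 15 arrays was left out, with an adjusted p of at most 0.108, and under 10 of the 14 other alternatives that gave it a value. These 15 were Water_only replicates 2, 3, 5, 6, 7 and 9, Limited_Ethanol replicates 1 and 2, and Continuous_ethanol replicates 3, 4, 6, 7, 8, 9 and 10. Without Water_only replicate 4, which is the highest water array on all 3 probe sets, the brightest probe set passed as well (0.30, adjusted p = 0.0332).

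**Figure D2:**
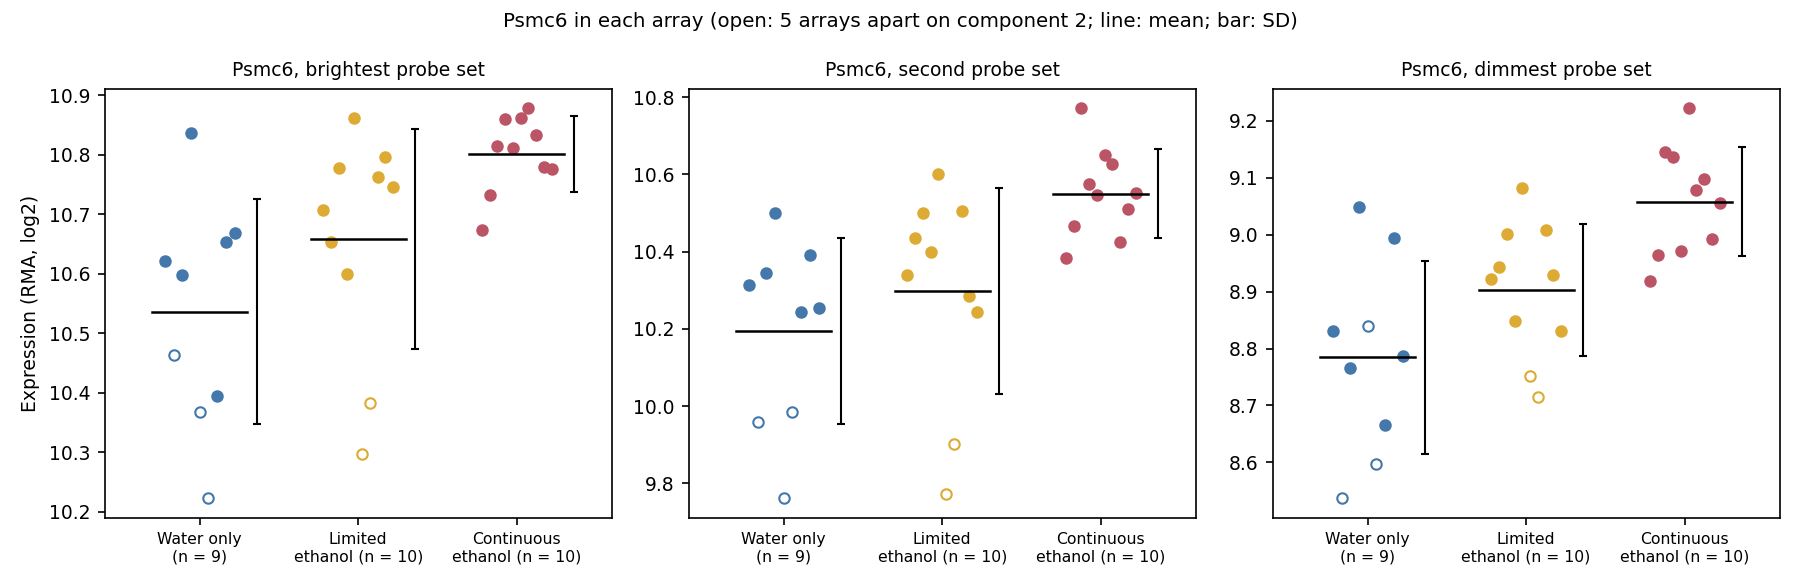
Expression of Psmc6 (RMA, log2, vertical axis) in each array of the 3 groups on its 3 probe sets, each panel with its own scale. Lines are means, bars 1 SD, and open points the 5 arrays that stood apart, which are the 5 lowest on the second probe set, at 9.76 to 9.99; on the brightest the Continuous_ethanol arrays run from 10.67 to 10.88.

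The other 19S ATPases differed less from water after continuous ethanol. Psmc1, Psmc2, Psmc3 and Psmc5 had means 0.03 to 0.06 higher, and Psmc4 was at -0.01 ± 0.03 (SE), the lowest of the 6. Psmc2 ran from 12.83 to 13.01 in water and from 12.88 to 13.08 after continuous ethanol, with 7 of 10 arrays above the water mean. Psmc5 ran from 12.38 to 12.59 in water and from 12.42 to 12.63 after continuous ethanol, with the same count. The interval of the difference reached at most 0.15 in these 5 genes (Psmc3), and their adjusted p-values were between 0.504 and 0.863.

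All 7 alpha ring genes had higher means after continuous ethanol, with a median difference of 0.09; 6 did, all but Psma6, after a second quantile normalization (median 0.07) or with the array SD as a covariate (median 0.04). For Psma4, one of the ring's structural subunits, the Water_only arrays ran from 11.25 to 11.46 (median 11.41), the Limited_Ethanol arrays from 11.30 to 11.56 (11.43) and the Continuous_ethanol arrays from 11.41 to 11.59 (11.53). Of the continuous arrays 8 of 10 lay above the highest water array, the largest such count among the genes described here. The difference was 0.13 ± 0.03 (SE; adjusted p = 0.127), and it was 0.13 ± 0.04 without the 5 arrays apart (adjusted p = 0.282). For Psma5 water ran from 11.77 to 12.07 (median 11.99), limited access from 11.97 to 12.20 (12.07) and continuous access from 11.96 to 12.14 (12.08). It was higher than water by 0.09 ± 0.04 (SE) after both schedules, with overlapping ranges. Psma1, Psma2 and Psma3 had differences of 0.10, 0.08 and 0.09, and Psma7 of 0.03. For Psma1 it was 0.06 ± 0.04 without the 5 arrays apart and 0.02 ± 0.06 with the array SD as a covariate. Psma6 was at 0.00 ± 0.03 (SE), with 5 of 10 continuous arrays above the water mean.

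All 6 constitutive beta ring genes had higher means after continuous ethanol as well, with a median of 0.04; 4 did, all but Psmb3 and Psmb5, after a second quantile normalization (median 0.02). Psmb2, a subunit with no proteolytic site, ran from 12.06 to 12.26 in water (median 12.13), from 11.90 to 12.33 with limited access (12.19) and from 12.16 to 12.36 with continuous access (12.24). Its difference was 0.10 ± 0.04 (SE; adjusted p = 0.222), and all 10 of the continuous arrays exceeded the water mean. With the array SD as a covariate it was 0.06 ± 0.04. The catalytic Psmb5, the chymotrypsin-like subunit, ran from 13.00 to 13.17 in both water and continuous access and from 13.07 to 13.20 with limited access. Its difference from water was 0.01 ± 0.03 (SE) after continuous and 0.04 ± 0.03 after limited access, with a 95% interval of -0.05 to 0.07 for the first. Psmb7, the trypsin-like subunit, ran from 12.48 to 12.60 in water (median 12.53), from 12.47 to 12.61 with limited access (12.56) and from 12.51 to 12.66 with continuous access (12.58). It differed by 0.05 ± 0.03 (SE; adjusted p = 0.335). Psmb1, Psmb3 and Psmb4 had differences of 0.03, 0.00 and 0.06.

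All 8 lid genes had higher means after continuous ethanol, with a median of 0.05, also after a second quantile normalization (0.03), with the array SD as a covariate (0.06) and without the 5 arrays apart (0.08). For Psmd12, a structural subunit of the lid, water ran from 10.72 to 10.90 (median 10.80), limited access from 10.60 to 10.98 (10.87) and continuous access from 10.77 to 11.11 (10.99). Of the continuous arrays 7 of 10 lay above the highest water array. The difference was 0.16 ± 0.05 (SE; adjusted p = 0.136), and without the 5 arrays apart it was also 0.16 ± 0.05 (adjusted p = 0.279), but 0.09 ± 0.04 with the array SD as a covariate. Psmd14, the deubiquitinase that removes ubiquitin chains from substrates, ran from 11.78 to 12.05 in water (median 11.85), from 11.75 to 12.07 with limited access (11.96) and from 11.91 to 12.22 with continuous access (11.99). It differed by 0.14 ± 0.04 (SE; adjusted p = 0.158), by 0.10 ± 0.04 without the 5 arrays apart, and by 0.07 ± 0.04 with the array SD as a covariate. Its other probe sets differed by 0.09 ± 0.03 and 0.14 ± 0.09. Psmd6, another structural subunit of the lid, ran from 12.26 to 12.48 in water (median 12.36), from 12.30 to 12.51 with limited access (12.43) and from 12.39 to 12.49 with continuous access (12.46). Its difference of 0.10 ± 0.03 (SE; adjusted p = 0.153) went with 10 of 10 arrays above the water mean, and the groups overlapped. Psmd3, Psmd7, Psmd8, Psmd11 and Psmd13 had differences of 0.02 to 0.05.

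**Figure D3:**
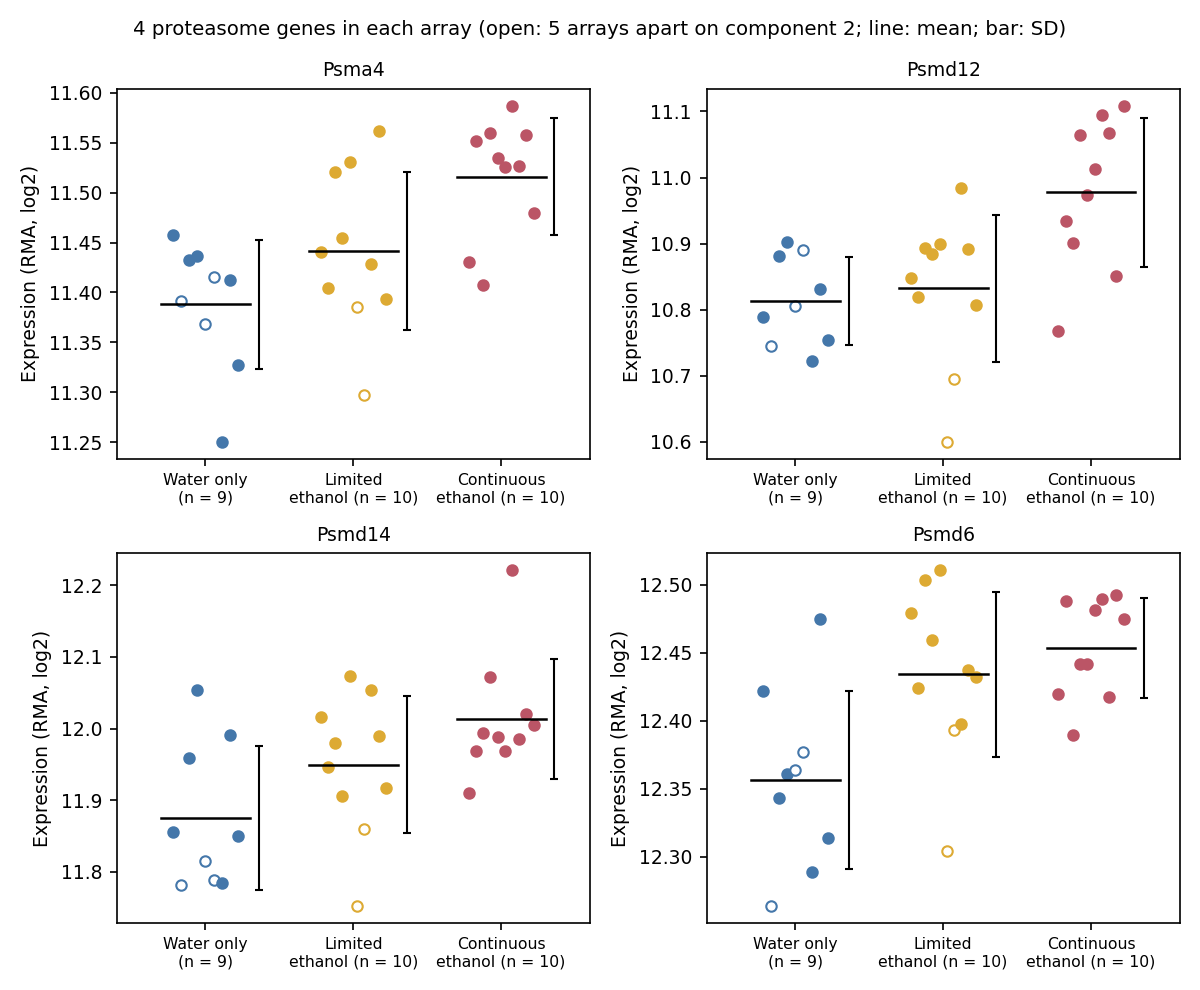
Expression (RMA, log2, vertical axis) of Psma4, Psmd12, Psmd14 and Psmd6 in each array of the 3 groups, each panel with its own scale. Lines are means, bars 1 SD, and open points the 5 arrays that stood apart; for Psma4 8 of 10 Continuous_ethanol arrays lie above the highest Water_only array, and for Psmd12 7 of 10.

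The base also holds 3 subunits that are no ATPases, and all 3 had higher means after continuous ethanol. Psmd1, the large scaffold, ran from 10.69 to 10.85 in water (median 10.77), from 10.63 to 10.84 with limited access (10.82) and from 10.75 to 10.995 with continuous access (10.80). It differed by 0.08 ± 0.03 (SE; adjusted p = 0.265), and 9 of 10 continuous arrays exceeded the water mean. With array weights it was 0.04 ± 0.03, and with beta-actin as a covariate likewise. Psmd2, the other scaffold, and Psmd4, a ubiquitin receptor, had differences of 0.03 and 0.05. Of the chaperones, Psmd5 was at 0.01, Psmd9 at 0.05 and Psmd10 at -0.02. Psmc3ip, the gene outside the proteasome, was at 0.03 ± 0.04 (SE). Left out together with the 3 immune subunits, it leaves 33 genes, of which 31 were higher.

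Of the 3 immune subunits, Psmb8 and Psmb9 stood apart from the other members by their spread, and neither they nor Psmb10 passed the test in any comparison. Psmb8 ran from 8.18 to 9.48 in water (median 8.58), from 7.99 to 9.12 with limited access (8.33) and from 8.06 to 9.13 with continuous access (8.67). Psmb9 ran from 7.96 to 9.30 in water (median 8.27), from 7.78 to 8.88 with limited access (8.17) and from 7.48 to 8.98 with continuous access (8.31). All groups overlapped almost wholly. The SD within groups averaged 0.36 for Psmb8 and 0.37 for Psmb9, above 98.6% and 98.7% of the genes tested, and 0.10 for Psmb10. The median of this SD was 0.07 over the 37 genes and 0.10 over all genes tested. Continuous ethanol differed from water by 0.01 ± 0.15 (SE) in Psmb8 and by -0.03 ± 0.16 in Psmb9. The 95% intervals, -0.31 to 0.32 and -0.35 to 0.30, would hold differences larger than that of Psmc6. Limited access differed from water by -0.21 ± 0.15 and -0.17 ± 0.16 (adjusted p = 0.972 for both). Without the 5 arrays apart Psmb9 was at 0.05 ± 0.16 after continuous and -0.04 ± 0.16 after limited access, and Psmb8 at 0.06 ± 0.16 and -0.16 ± 0.16. With the leptomeningeal markers as a covariate, limited access differed from water by -0.05 ± 0.11 in Psmb8 and 0.01 ± 0.10 in Psmb9. Psmb10 ran from 9.66 to 9.95 in water (median 9.78), from 9.67 to 9.87 with limited access (9.79) and from 9.68 to 10.13 with continuous access (9.77), where Continuous_ethanol replicate 7 was far above the rest. Its differences from water were -0.00 ± 0.05 and -0.02 ± 0.05.

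Psmb8 and Psmb9 moved together across arrays. Both genes lie in the major histocompatibility region. Their promoters are shown because the genes moved together, at chr20:4657032-4657281 (minus strand) for Psmb8 and chr20:4668750-4668999 (plus strand) for Psmb9 in GRCr8. In Psmb8 the capitals mark a CCAAT box read on the other strand, and none of the 6 motifs matched in the window of Psmb9.
Psmb8: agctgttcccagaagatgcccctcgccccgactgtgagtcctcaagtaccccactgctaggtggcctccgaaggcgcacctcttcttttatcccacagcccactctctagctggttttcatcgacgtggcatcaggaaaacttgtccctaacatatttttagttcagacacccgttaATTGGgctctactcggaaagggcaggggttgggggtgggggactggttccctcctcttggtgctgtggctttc
Psmb9: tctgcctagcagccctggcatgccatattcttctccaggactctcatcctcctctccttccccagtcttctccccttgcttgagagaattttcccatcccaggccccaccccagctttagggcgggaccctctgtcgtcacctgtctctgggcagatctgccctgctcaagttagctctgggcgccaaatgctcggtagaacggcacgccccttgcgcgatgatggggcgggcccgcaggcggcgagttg
Over the 29 arrays their correlation was 0.91 (Spearman's rho 0.86; permutation p = 1e-05 for both, the smallest that 100000 permutations can give; adjusted p = 6e-05 and 0.0001 over 12 relations). Without the 2 arrays farthest from the median of Psmb8 it was 0.88, and within the groups it was 0.92 in water, 0.90 with limited and 0.92 with continuous access. Markers of the leptomeninges, the membrane around the brain, moved with both genes. All 16 of the listed markers were above the filter, and their mean deviation ran from -0.23 to 0.88 in water, from -0.36 to 0.62 with limited access and from -1.37 to 0.59 with continuous access. With it Psmb9 correlated at 0.79 (rho 0.62; permutation p = 1e-05 and 0.0004; adjusted p = 6e-05 and 0.0024), and at 0.64 without the 2 farthest arrays. Within groups that correlation was 0.82, 0.58 and 0.96 in water, limited and continuous access. Psmb8 correlated at 0.68 (rho 0.57; permutation p = 5e-05 and 0.00175; adjusted p = 0.0002 and 0.007), and at 0.57 without the 2 farthest. Psmb10 correlated with these markers at 0.56 (rho 0.53; permutation p = 0.00421 and 0.00362; adjusted p = 0.0098 and 0.0109), but at 0.12 within limited access. Psmb10 correlated with Psmb8 at 0.40 and with Psmb9 at 0.48 (adjusted permutation p = 0.0388 and 0.0175), but at -0.23 and -0.35 within limited access, and by rho at 0.30 and 0.38 (adjusted permutation p = 0.175 and 0.0989). Microglial markers correlated at 0.16 with Psmb8 (rho 0.03; permutation p = 0.418 and 0.891) and at 0.30 with Psmb9 (rho 0.07; permutation p = 0.111 and 0.735). With Psmb10 they correlated at 0.48 (rho 0.24; adjusted permutation p = 0.0175 and 0.255), and at 0.18 without the 2 farthest arrays; within groups it was -0.07 in water, 0.39 with limited and 0.89 with continuous access. Endothelial and mural markers correlated at 0.51 with Psmb8 and 0.60 with Psmb9 (rho 0.29 and 0.30; adjusted permutation p = 0.0098 and 0.00399 for r and 0.175 for both rho). Without the 2 farthest arrays, Water_only replicate 2 and Continuous_ethanol replicate 3, these were 0.15 and 0.16, so the pooled values depended strongly on those arrays. Limited access holds neither of them. Within water, limited and continuous access the correlations were 0.69, 0.65 and 0.48 for Psmb8 and 0.84, 0.63 and 0.54 for Psmb9. With Psmb10 the endothelial and mural markers correlated at 0.24 (rho 0.29; permutation p = 0.196 and 0.131). Whether the amount of membrane in the dissected tissue sets these levels was not tested.

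**Figure D4:**
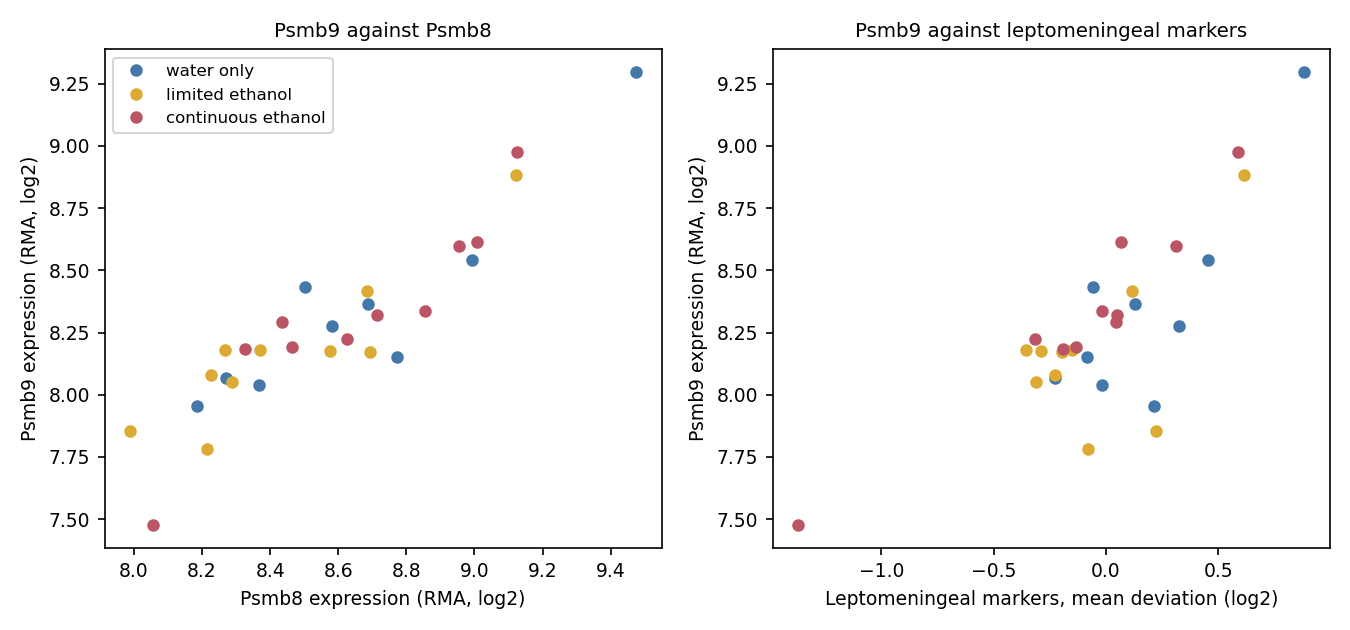
Psmb9 (RMA, log2) against Psmb8 (left) and against the mean deviation of 16 leptomeningeal markers (right, log2), 1 point per array, coloured by group. Psmb9 rises with both (correlations of 0.91 and 0.79), and the 3 groups are mixed along the range.

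No proteasome gene passed the threshold between limited access and water. limma called 0 of 21729 probe sets (0%) and so 0 members, and 2 of 37 genes were higher at an unadjusted p under 0.05, beside 2.18% of all genes, and 0 lower, beside 2.38%. Of the means, 28 of 37 were higher with limited access, where 48.5% were over all genes, and the median was 0.03. The 3 with the smallest p were Psmd6 at 0.08 ± 0.03 (SE), Psma5 at 0.09 ± 0.04 and Psmd7, a lid subunit, at 0.05 ± 0.03, each with an adjusted p of 0.972. Psmd7 ran from 11.70 to 11.99 in water (median 11.86) and from 11.86 to 11.98 with limited access (11.89), with 10 of 10 limited arrays above the water mean. Psmc6 followed at 0.12 ± 0.07, then Psmd14 at 0.07 ± 0.04, Psma4 at 0.05 ± 0.03, Psmb5 at 0.04 ± 0.03 and Psmc1, another ATPase, at 0.04 ± 0.03. For Psmc1 water ran from 11.72 to 11.83 and limited access from 11.75 to 11.97. By place in the complex, 8 of 8 lid genes, 6 of 7 alpha ring genes and 5 of 6 constitutive beta genes were higher. So were 4 of 6 base ATPases (not Psmc2 and Psmc5), 2 of 3 other base subunits (not Psmd2), 2 of 3 chaperones (not Psmd5) and 0 of 3 immune subunits. Without the 5 arrays apart 1 of 3 immune subunits was higher, and their median moved from -0.17 to -0.04. Over all members 33 of 37 were then higher (47.8% of all genes), 8 of them at an unadjusted p under 0.05 (1.62% of all genes), with a median of 0.04. Both ethanol groups are set against the same 9 water arrays, so the 2 comparisons share whatever those arrays hold.

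Limited and continuous access were also set against each other. The 3′ over 5′ signal of beta-actin was 0.10 lower with limited than with continuous access (exact permutation p = 0.0146, adjusted p = 0.142). The second principal component was 8.28 lower (exact permutation p = 0.0185, adjusted p = 0.142) and the array SD 0.02 lower (exact permutation p = 0.0743, adjusted p = 0.322). The part of these array measures in the differences below was not tested. limma called 1 of 21729 probe sets (0.0046%), and no member. Of the 37 genes 9 were higher with limited access, beside 44% of all genes, and 28 were lower, with a median of -0.03. Applying quantile normalization once more gave 13 higher, beside 51.1% of all genes. At an unadjusted p under 0.05, 4 were lower, beside 6.38% of all genes, and 0 were higher, beside 3.03%. These were Psmd12 at -0.15 ± 0.05 (SE; adjusted p = 0.526), with 9 of 10 limited arrays below the continuous mean, Psmd2 at -0.06 ± 0.03, Psma4 at -0.07 ± 0.03 and Psmc6 at -0.14 ± 0.07. For Psmd2 limited access ran from 11.81 to 11.94 (median 11.87) and continuous access from 11.86 to 12.04 (11.93), so that the ranges overlapped from 11.86 to 11.94. Psmc5 was at -0.05 ± 0.03, Psmc2 at -0.06 ± 0.03, Psmd1 at -0.05 ± 0.03 and Psma1 at -0.09 ± 0.06, none of them past an unadjusted p of 0.05. Without the 5 arrays apart 28 of 37 were lower, with a median of -0.01, and 25 genes were lower in both fits; Psma6, Psmd6 and Psmd11 were lower only with those arrays, and Psmc1, Psmc4 and Psmc3ip only without them. On the probe set that stands for each gene, Psmd12 alone reached an unadjusted p under 0.05 then, at -0.10 ± 0.04. Psmc6 was at -0.06 ± 0.04 on its brightest probe set, Psma4 at -0.05 ± 0.03, Psmd2 at -0.05 ± 0.03 and Psma1 at -0.01 ± 0.04. With the array SD as a covariate Psmc6 was at -0.05 ± 0.05 and Psmd12 at -0.09 ± 0.04. The other Psmc6 probe sets, 1379850_at and 1382385_at, showed larger differences than the brightest. They were at -0.25 ± 0.09 and -0.16 ± 0.06 over all arrays (adjusted p = 0.526 for both). Without the 5 arrays apart they were at -0.14 ± 0.05 and -0.11 ± 0.05, and neither was called.

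Several probe sets stood for 7 genes, and these did not always follow each other. The probe sets of Psmc6, Psmd14 and Psmd7 correlated within groups at 0.61 to 0.83 over the 29 arrays. The pairs of Psmb5, Psmc4, Psmd11 and Psmd9 that were tested correlated at -0.14 to 0.13. Psmb5 gave opposite signs: its brightest probe set was at 0.01 between continuous access and water, and 1385532_x_at at -0.10 ± 0.06 (SE). That probe set ran from 7.48 to 7.78 in water and from 7.36 to 7.71 after continuous ethanol. The second tested probe set of Psmd11 was at 0.10 ± 0.05, and the brightest at 0.04 ± 0.03. Another probe set of Psmb5, with a mean of 6.002, and one of Psmd11, with a mean of 6.63, lay under the filter of 6.86 and were not tested. All 37 genes kept at least 1 tested probe set.

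How the members moved together across arrays was described by their correlations within groups. The median correlation between pairs of the 37 genes was 0.23 over the 29 arrays and 0.31 over the 24 without those apart, and between all genes tested it was 0.01 and 0.02. These correlations share the arrays and their RNA, and they are a description. Psmb4 had the highest median correlation with the other members, at 0.47, followed by Psmb1 at 0.44 and Psma2 at 0.41. Psmd3 was at -0.18 and Psmb5 at -0.03, the 2 below 0. As a mean deviation over the 36 genes without Psmc3ip, the Water_only arrays ran from -0.11 (replicate 7) to 0.02, the Limited_Ethanol arrays from -0.07 to 0.06 and the Continuous_ethanol arrays from -0.06 to 0.15 (replicate 7). This mean includes Psmb8 and Psmb9, whose wide spread can move it. Water_only replicate 2, the highest array in both genes, was at 0.02, though 23 of the 37 genes lay below their means there. Without Continuous_ethanol replicate 7, 29 of 37 genes were higher than in water with a median of 0.04, and without Water_only replicate 7, 31 were with a median of 0.03. The share of all genes that were higher in these fits is not given here. On Continuous_ethanol replicate 7, 34 of 37 genes lay above their mean over the 29 arrays, and on Water_only replicate 7, 34 of 37 lay below it. The share of all genes tested was not counted on these arrays. A shift of the members there thus cannot be told apart from one of many genes.

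**Figure D5:**
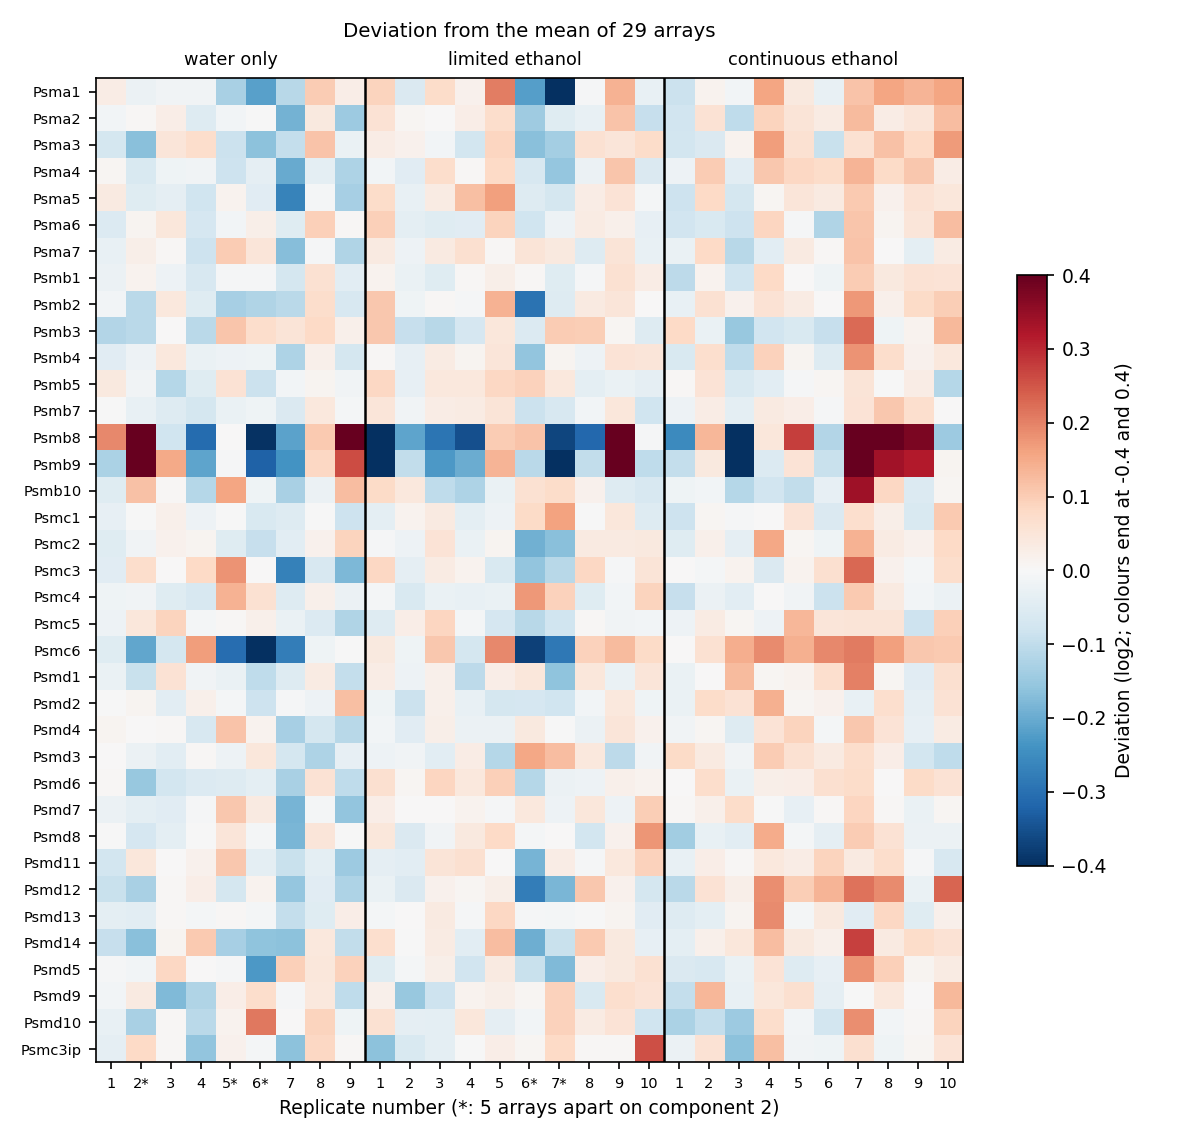
Deviation of each of the 37 genes (rows, ordered as in the plot of differences) from its mean over 29 arrays (columns, log2; colours end at -0.4 and 0.4), with the arrays that stood apart starred. Continuous_ethanol replicate 7 is above the mean and Water_only replicate 7 below it in 34 rows each, and the share of all genes was not counted. Psmb8 and Psmb9 reach the ends of the scale. Psmc6, Psma3 and Psmb2 are among the genes that are low on the starred arrays.

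Genes that work with the proteasome were described from 5 lists of 35 genes, of which 29 were tested. limma called 0 of 29 between continuous access and water, and 3 reached an unadjusted p under 0.05, all higher, beside 10.4% of all genes. The mean was higher in 20 of the 29, beside 53.1% of all genes, with a median of 0.04, against 0.01 over all genes. Among activators, the inhibitor, receptors and associated enzymes 5 of 10 were higher. Uchl5, a deubiquitinase that docks on the 19S particle, averaged 10.88 ± 0.07 (SD, n = 9) in water, 10.90 ± 0.09 (n = 10) with limited and 11.04 ± 0.05 (n = 10) with continuous access. Its difference of 0.15 ± 0.03 (SE) had an adjusted p of 0.0547, the smallest of the 29. Sem1, a small lid subunit under another symbol, was at 0.10 ± 0.04. All 5 of the core assembly chaperones were higher, led by Psmg3 at 0.08 ± 0.03 and Psmg1 at 0.07 ± 0.04. The list of transcriptional control had 2 of 4 higher, with Ngly1, which activates Nfe2l1, at 0.07 ± 0.04 and Nfe2l1, which drives proteasome genes when proteasomes are inhibited, at -0.04 ± 0.03. Of the shuttles and the segregase 7 of 8 were higher, with Sqstm1, a ubiquitin-binding cargo receptor, at 0.05 ± 0.03 and Rad23b, a shuttle, at 0.09 ± 0.05. Of the E1 enzymes Uba1 was at -0.02 ± 0.03 and Uba6 at 0.05 ± 0.09.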

How the data were processed

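Expression was measured on 29 Affymetrix rat arrays of total RNA, labelled as biotinylated cRNA. The deposited values are log2 expression made by the authors with RMA, per the submitters' processing notes. Its software version was not given in the sources used here. RMA gives all arrays like distributions and so hides a shift of every transcript at once. The values carry no counts, and the number of arrays limits the precision. A platform table named 20832 of the probe sets by 1 symbol. Control probe sets and the dimmest 30% by mean (at or below 6.86) were left out, and 21729 were tested. One fit held all 29 arrays with group as its factor (lmFit and eBayes, limma 3.58.1, R 4.3.3), two-sided, with Benjamini-Hochberg adjustment over all 21729. The script was tested on simulated data, with changes of 0.2, 0.4 and 0.8 put into Continuous_ethanol. Against water it called 47.8%, 92.5% and 98.5% of them, with 9 false calls. Smaller changes, like most differences of the members, were not simulated. The noise was drawn separately for each probe set and array, without shifts shared by many probe sets. These shares may therefore not hold for the real arrays. Each adjusted p of a gene is limma's. Array measures were compared by exact permutation tests and correlations by 100000 permutations (scipy 1.17.1). A value is called higher in an array when it lies above the mean of the other group.

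The members, lists, rules and alternatives were chosen with earlier results of these data known. Genes named with values are those called on any probe set, the 8 of smallest p in each comparison, the catalytic beta subunits, members under the filter, and up to 2 of smallest p per related list; further genes are named to complete a group. Promoters come from a RefSeq table of GRCr8, of which the 250 bases before the start were used. Alternatives changed the filter, normalization, prior, weights, covariates, probe sets and samples.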

Additional observations from a re-analysis of the deposited data

Results flagged for a closer look

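In 117 sets of arrays (39 probe sets, 1 for each of the 37 genes and 2 more of Psmc6, in 3 groups), 11 values lay farther from the nearest other array than Dixon's 95% criterion allows; chance gives about 1 in 20. Continuous_ethanol replicate 7 was the highest of its group in Psmb10 (10.1322, next 9.8746), Psmc3 (11.666, next 11.5059) and Psmd14 (12.2214, next 12.0716). Limited_Ethanol replicate 6, one of the 5 arrays apart, was the lowest of its group in Psmb2 (11.8956, next 12.1393), Psmb4 (13.1534, next 13.2796) and Psmd11 (11.9183, next 12.0642). Psmb9 was highest in Water_only replicate 2 at 9.297 and lowest in Continuous_ethanol replicate 3 at 7.476, which were also the highest array of water and the lowest of continuous access in leptomeningeal markers (0.88 and -1.37). Psmc3ip was lowest in Continuous_ethanol replicate 3 at 8.7207. Psmd5 was lowest in Water_only replicate 6 at 10.3243, and Psmd8 in Water_only replicate 7 at 10.9626.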

How the results depend on the processing

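Between continuous access and water the 33 called probe sets became 10 with the array SD as a covariate, 12 without the 5 arrays apart, 14 with them as a block, 20 with 1 probe set per gene, 18 with the mean of a gene's probe sets and 18 with beta-actin as a covariate, which was chosen after seeing the data. Leaving out each array gave 18 (without Water_only replicate 5) to 94 (without Water_only replicate 4); Water_only replicate 8 gave 59 and Limited_Ethanol replicate 6 gave 66. The 1 proteasome probe set called, of Psmc6, became 0 with no filter, array weights, a replicate block, the 3′ over 5′ signal, the array SD, the leptomeningeal markers or beta-actin as covariates, without the 5 arrays or with them as a block, and with only the 2 groups in the fit; leaving out each array gave 0 to 2. On the probe set that stands for each gene, the count of 0 proteasome genes became 0 to 1 when each array was left out. The median difference ran from 0.03 to 0.06 over these and the other alternatives. With the replicate block 28 probe sets were called in this comparison. The groups share replicate numbers, and 5 of 9, 5 of 9 and 2 of 10 same-numbered pairs correlated over 0.1, with medians of 0.12, 0.12 and 0.03. Pairs with different numbers were not compared, so these values cannot show whether the numbers pair the samples.

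Limited access against water kept 0 calls except 1 with array weights, and leaving out each array gave 0; its median ran from 0.02 to 0.03 then. Limited against continuous access went from 1 called to 0 with the replicate block, the 3′ over 5′ signal, array SD or beta-actin as covariates, without the 5 arrays or with them as a block, and with 1 probe set per gene or their mean, and to 2 with leptomeningeal markers; leaving out each array gave 0 to 3, and medians of -0.04 to -0.02. No proteasome probe set was called in these 2 comparisons under any alternative run. Over 63 named differences and their alternatives, 2797 of 2823 values stayed on their side of the threshold, 25 lost the call, 1 gained it and 0 called values changed direction. Only 1 of the 63 was called in the main fit, Psmc6 on 1382385_at between continuous access and water. The 25 losses were all of that call, and the values that stayed were mostly uncalled ones, so the total is no measure of robustness. In 14 differences 64 uncalled values changed sign. The causes were not tested.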
